A study of Mus musculus with 10 samples.

Results

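The genes described are those of 10 matricellular proteins, *Sparc*, *Sparcl1*, *Tnc*, *Tnxb*, *Postn*, *Spp1*, *Thbs1*, *Thbs2*, *Thbs3* and *Thbs4*, taken by name from the 53465 genes of the count table. All 10 were found, and all 10 passed the filter on low counts that left 16426 genes for testing. Bulk RNA-seq was performed on whole pinna prominences, the forming outer ears, micro-dissected from mouse embryos at E14.5. The 5 wild-type (WT) libraries were compared with 5 libraries of mEC1dup/dup embryos, in which CRISPR/Cas9 had inserted an additional copy of the enhancer mEC1 on each chromosome carrying *Hmx1*, so that both alleles held the duplication. All mice were kept on a C57BL/6J background, and how many founder lines were used is not given in the sources used here. The embryos are described as independent, and the knock-in was present in every cell of the animal, so the libraries do not separate effects in one cell type from effects in another.

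Matricellular proteins are secreted into the extracellular matrix but contribute little to its mechanical frame. They bind collagen, growth factors, proteases and cell surface receptors, and so tune how cells attach, spread and respond to signals. They are best known from tissues under remodelling, among them embryonic mesenchyme, healing wounds, tendon and developing bone, and mice that lack single members are often viable with defects of connective tissue.

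The libraries held between 17461544 and 18462073 counts. *Hmx1*, the gene regulated by mEC1, served as a check of the labels and was between 21.7 and 29.1 CPM (read counts scaled to a common library size, with TMM factors) in WT and between 52.8 and 77.5 CPM in mEC1dup/dup. The fibroblast and dermal mesenchyme markers *Pdgfra*, *Twist2*, *Col1a1*, *Col1a2*, *Lum*, *Dcn* and *Crabp1* were all detected, with a summed level of 8682 to 14480 CPM in WT and 9360 to 10350 CPM in mEC1dup/dup. The genotypes also differed in 2 measures that no label gives. *Xist*, the RNA that coats the inactive X chromosome of female cells, had 5 counts or fewer in each WT library but 12812, 19040, 18165, 2096 and 0 counts in mEC1dup/dup replicates 1 to 5. The embryonic globins *Hbb-y*, *Hbb-bh1* and *Hba-x* made up 18.4% to 23.3% of globin counts in WT and 32.5% to 35.6% in mEC1dup/dup. In these libraries *Xist* (4 of 5 embryos) and the globin share (5 of 5) moved with genotype. Fits with either as a covariate are given beside the members and the called relatives and receptor. The globin share did not overlap between genotypes, and for *Xist* only mEC1dup/dup replicate 5 was as low as WT. Such fits can therefore hardly separate the covariate from genotype. A call lost or a sign turned in them says nothing about the cause. The part of either measure in the results was not tested and cannot be told apart from that of genotype.

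The 10 genes spanned a wide range of levels. Per kilobase of exon, *Sparc*, which encodes the collagen-binding glycoprotein osteonectin, was the most abundant at 472 ± 33.6 CPM per kb in WT (SD, n = 5). *Postn*, encoding the fasciclin domain protein periostin, followed at 114 ± 7.71 CPM per kb. *Thbs1* at 36.7 ± 3.95 and *Tnc* at 34.3 ± 3.84 CPM per kb came next, and their ranges over the WT libraries overlapped, so their order is not resolved. *Sparcl1* had 22.1 ± 2.24, *Thbs2* 18.8 ± 2.11, *Thbs4* 14.9 ± 1.73 and *Thbs3* 12.4 ± 1.17 CPM per kb, and in this run of genes each overlapped its neighbour. *Spp1* at 1.98 ± 0.489 and *Tnxb* at 0.496 ± 0.107 CPM per kb were the lowest, without overlap with each other or with the genes above. In mEC1dup/dup the order was the same except for *Thbs4* and *Thbs2*, which changed places at 14.6 to 20.3 and 12.6 to 15.4 CPM per kb. When each gene was divided by the length of its canonical transcript instead, a choice made after seeing the data, *Sparcl1* moved up to 42.3 ± 4.28 CPM per kb in WT, above *Thbs1* at 38.1 ± 4.10, and *Thbs3* moved above *Thbs4*, while *Sparc* and *Postn* stayed at the top and *Spp1* and *Tnxb* at the bottom.

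**Figure D1:**
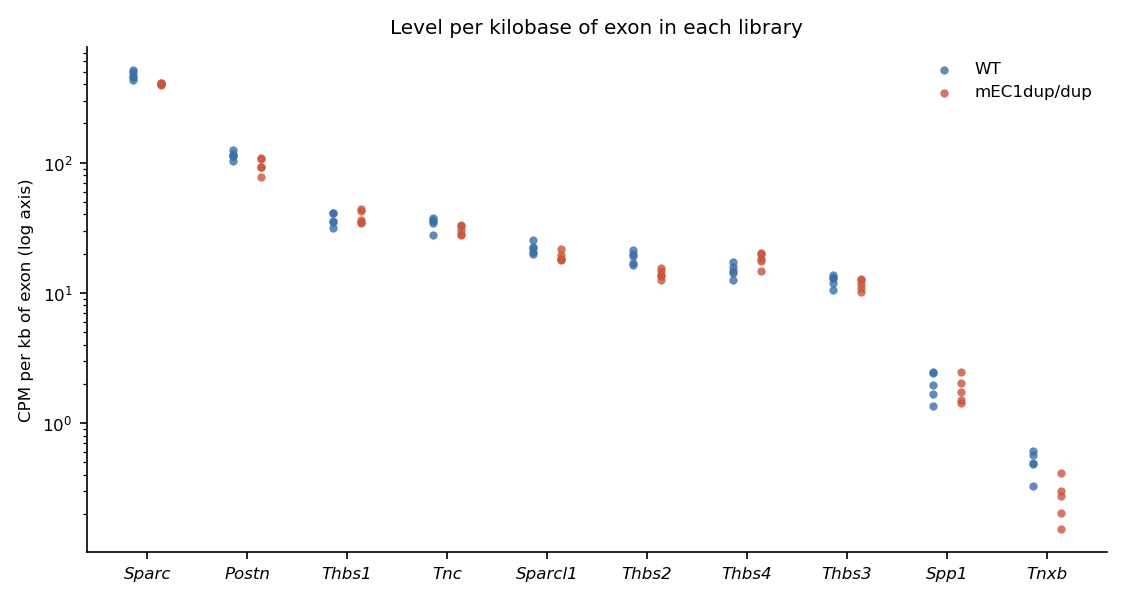
Level of each gene in CPM per kilobase of exon (vertical log axis, union of the exons of all annotated transcripts), ordered by the WT mean; each point is 1 library, blue for WT and red for mEC1dup/dup, 5 of each. *Sparc* at 472 and *Tnxb* at 0.496 CPM per kb are the ends of the WT order, and *Thbs1* and *Tnc* overlap.

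Together the 10 genes held 0.362% to 0.421% of all counts in the WT libraries and 0.325% to 0.359% in the mEC1dup/dup libraries, and *Sparc* and *Postn* made up between 72.9% and 76.9% of that. On the TMM scale the summed level was 3573 to 4254 CPM in WT and 3240 to 3589 CPM in mEC1dup/dup, where the ranges overlapped.

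Of the 10 genes, 2 were lower in mEC1dup/dup, *Thbs2* and *Sparc*, and none was higher. A gene was called at an average log2 CPM of at least 1 and an adjusted p of at most 0.05, from the quasi-likelihood test of edgeR with the Benjamini-Hochberg method over all tested genes. Of all tested genes, 1.81% were called lower and 0.834% higher. The 10 genes were chosen with earlier results of these data known, so such shares beside them are a description. At an unadjusted p under 0.05 in edgeR's test, 6 of the 10 genes were lower and 1 was higher, beside 9.08% and 7.10% of all tested genes. The estimates of 8 of the 10 lay below 0, beside 51.2% of all tested genes, and the median log2 fold change was -0.20, beside -0.00415 over all tested genes. DESeq2's Wald test called 4 of the 10 lower, *Thbs2*, *Sparc*, *Tnxb* and *Postn*, and limma-voom called 2, and neither called any higher. Over all genes the Wald test called 510 lower and limma-voom 276, beside 297 by edgeR. In bulk tissue, fewer cells of a type and less RNA per cell cannot be told apart.

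**Figure D2:**
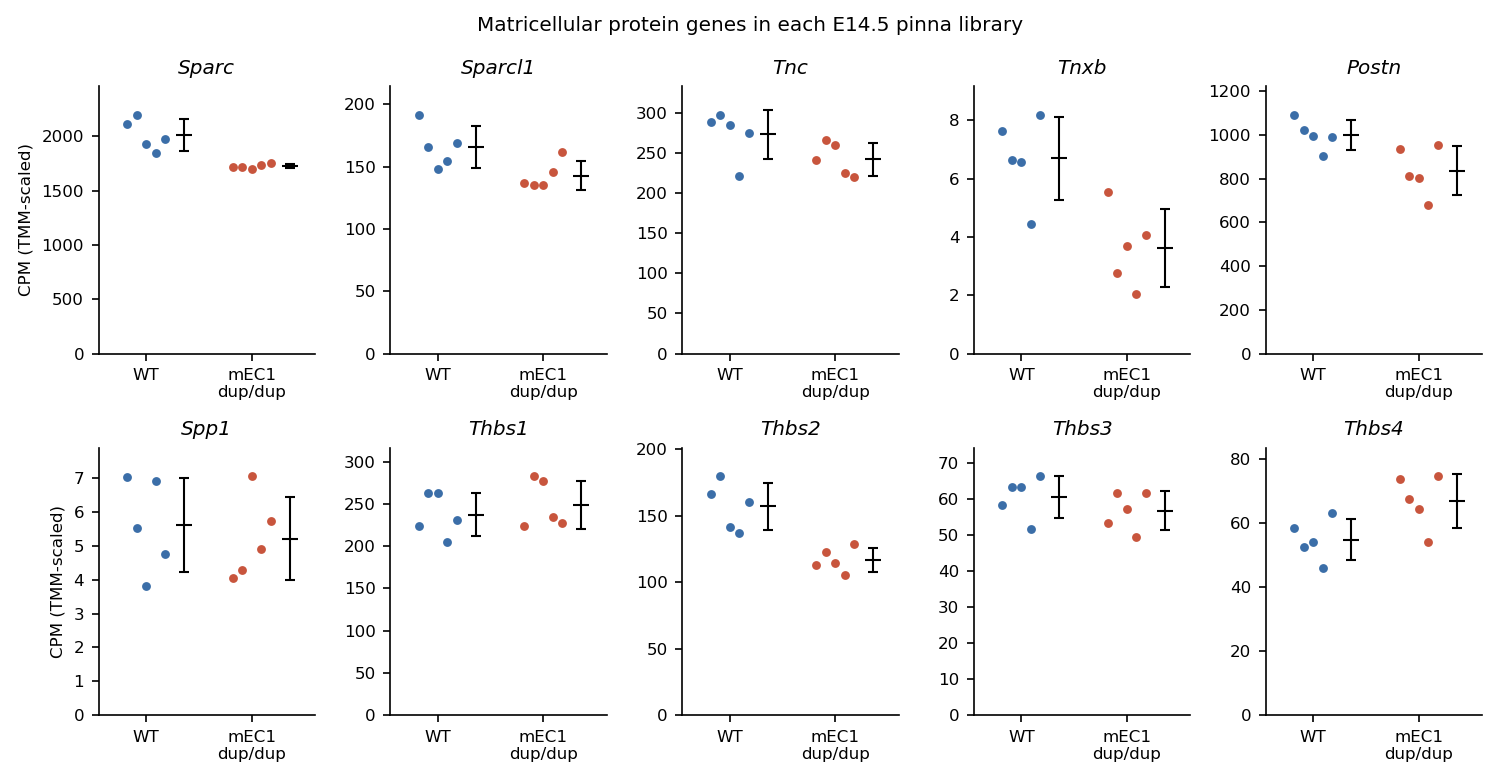
TMM-scaled CPM (vertical axis from 0) of each gene in WT (blue) and mEC1dup/dup (red); points are single libraries in the order of their replicate numbers, and black bars are the mean ± SD of 5. For *Thbs2* and *Sparc* every red point lies below every blue point, and for the other genes the groups overlap.

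The sequences before the transcription start were read for the called genes, *Thbs2* and *Sparc*, and for *Thbs4*, the member with the largest positive estimate. The 250 bases directly upstream of the start of the GENCODE canonical transcript in GRCm39 are shown 5′ to 3′ on the strand of the gene. They lie at chr17:14914529-14914778 (minus strand) for *Thbs2*, at chr11:55310907-55311156 (minus strand) for *Sparc* and at chr13:92931327-92931576 (minus strand) for *Thbs4*. Capitals mark matches to CAAGTG, the core bound by HMX factors, TATAAA, the TATA box, and CATTCC, the core bound by TEAD factors, searched on both strands.
Thbs2: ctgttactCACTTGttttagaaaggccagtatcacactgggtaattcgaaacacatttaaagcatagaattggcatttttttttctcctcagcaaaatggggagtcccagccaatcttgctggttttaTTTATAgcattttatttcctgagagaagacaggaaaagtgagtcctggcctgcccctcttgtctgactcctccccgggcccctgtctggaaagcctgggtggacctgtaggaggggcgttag
Sparc: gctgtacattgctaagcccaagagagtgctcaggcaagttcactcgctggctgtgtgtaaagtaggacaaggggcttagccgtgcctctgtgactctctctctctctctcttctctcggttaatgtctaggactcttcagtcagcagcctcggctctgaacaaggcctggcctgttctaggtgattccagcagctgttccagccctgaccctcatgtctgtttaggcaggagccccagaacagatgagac
Thbs4: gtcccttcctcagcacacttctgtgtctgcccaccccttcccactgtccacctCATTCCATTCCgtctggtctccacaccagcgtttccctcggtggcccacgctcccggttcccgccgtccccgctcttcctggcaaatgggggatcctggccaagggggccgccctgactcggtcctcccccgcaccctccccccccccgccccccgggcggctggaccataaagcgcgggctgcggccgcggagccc

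In the *Thbs2* sequence CAAGTG occurs on the opposite strand, from 242 to 237 bases before the start, and TATAAA on the opposite strand from 122 to 117 bases before it. The *Thbs4* sequence holds CATTCC at 2 places that share a base, and the *Sparc* sequence holds none of the 3 motifs. *Thbs2* was the 1 of the 10 genes with CAAGTG and the 1 with TATAAA, and CATTCC was found in *Spp1* and *Thbs4*. Among 21770 upstream sequences of the same length, 12.4% held CAAGTG, 11.9% TATAAA and 12.1% CATTCC on either strand. A match of these letters is not evidence of binding. The paper reports no enrichment of the *Hmx1* motif in promoters and regulatory elements of its downregulated genes.

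The thrombospondins form 2 subgroups. *Thbs1* and *Thbs2* encode trimeric proteins that bind CD36, CD47 and integrins and restrain the growth of vessels, and the products of *Thbs3* and *Thbs4* assemble as pentamers, as that of *Comp* does. *Thbs2* lies on the minus strand of chromosome 17 of GRCm39 from 14885761 to 14914528, and its canonical transcript has 22 exons. It had 166, 180, 141, 137 and 161 CPM in WT replicates 1 to 5 and 113, 122, 114, 105 and 129 CPM in mEC1dup/dup replicates 1 to 5, from 1951 to 3245 counts per library. Every mEC1dup/dup library was below every WT library, a separation found in the lower direction for 2.75% of tested genes. The level fell from 157 ± 17.7 to 117 ± 9.13 CPM (SD, n = 5), a log2 fold change of -0.43 (SE 0.075, 95% interval -0.59 to -0.26; edgeR quasi-likelihood test, adjusted p = 0.0117). This was the gene's level at 0.744 of WT, and the gene ranked 102 of the tested genes by p. With each of the 10 libraries left out in turn, *Thbs2* was called in all 10 fits, at log2 fold changes between -0.47 and -0.37. The *Thbs2* call was lost with the log2 CPM of *Xist* as a covariate (-0.35, SE 0.118; adjusted p = 0.396 from edgeR) or the embryonic globin share (-0.18, SE 0.332; adjusted p = 0.950 from edgeR). Replicate 5, the mEC1dup/dup library with 0 *Xist* counts, was also fitted alone against the 5 WT libraries, a fit added after seeing the data. It gave a *Thbs2* log2 fold change of -0.28. With 1 library in an arm, that fit takes its spread from WT alone, so only its estimates are given.

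*Thbs1* had 224, 263, 263, 205 and 231 CPM in WT replicates 1 to 5, and 224, 283, 277, 234 and 227 CPM in mEC1dup/dup replicates 1 to 5. The groups overlapped, and the log2 fold change was 0.07 (95% interval -0.11 to 0.25; edgeR quasi-likelihood test, adjusted p = 0.747), with values of 0.02 to 0.12 when single libraries were left out. Its sign was negative with *Xist* (-0.07, SE 0.124) or the globin share (-0.06, SE 0.391) as a covariate and in mEC1dup/dup replicate 5 alone (-0.06). Of the exonic bases of *Thbs1*, 11.1% are shared with genes on the opposite strand, and the libraries do not keep strand, so their reads cannot be told apart. *Thbs3* had 60.6 ± 5.72 CPM in WT and 56.8 ± 5.34 CPM in mEC1dup/dup (SD, n = 5), and 3 of the 5 mEC1dup/dup libraries lay below the WT mean. The log2 fold change of *Thbs3* was -0.09 (95% interval -0.26 to 0.07; edgeR quasi-likelihood test, adjusted p = 0.604), and it ranged from -0.15 without WT replicate 4 to -0.05 without mEC1dup/dup replicate 4 over the leave-one-out fits. The *Thbs3* estimate was -0.03 (SE 0.12) with *Xist* as a covariate and -0.045 (SE 0.349) with the globin share. *Mtx1* on the opposite strand overlaps 7.11% of the exonic bases of *Thbs3*.

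*Thbs4*, known from muscle, tendon and the nervous system, was the member with the largest positive estimate. It had 58.4, 52.7, 54.0, 46.0 and 63.1 CPM in WT replicates 1 to 5 and 73.7, 67.7, 64.4, 54.0 and 74.7 CPM in mEC1dup/dup replicates 1 to 5. In 4 mEC1dup/dup libraries the level was above every WT library, and replicate 4 lay within the WT range. The log2 fold change was 0.29 (SE 0.094, 95% interval 0.08 to 0.49), with an unadjusted p of 0.00948 and an adjusted p of 0.138 in edgeR's quasi-likelihood test, which missed the threshold. In the 10 leave-one-out fits it stayed between 0.23 and 0.35, and in mEC1dup/dup replicate 5 alone it was 0.45. The *Thbs4* estimate was 0.37 (SE 0.143) with *Xist* as a covariate and 0.535 (SE 0.422) with the globin share. A fit with a replicate block called *Thbs4* higher (0.29, adjusted p = 0.00493 from edgeR). Whether the replicate numbers pair the libraries is not settled.

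Whether 2 members of a family moved apart was tested on their log2 ratio within each library, for 8 pairs, by a two-sided exact permutation test in which 5 libraries against 5 give no p below 0.00794. The ratios themselves also hold the lengths of the 2 genes, so only their difference between genotypes is read. The log2 ratio of *Thbs2* to *Thbs4* was 1.51, 1.77, 1.38, 1.57 and 1.35 in the WT replicates and 0.61, 0.85, 0.83, 0.96 and 0.79 in the mEC1dup/dup replicates. It was lower in every mEC1dup/dup library, by 0.71 on average (SE 0.094), with p = 0.00794 in the exact permutation test and 0.0212 after Benjamini-Hochberg adjustment over the 8 pairs. The ratios of *Thbs2* to *Thbs3* (difference -0.33) and of *Thbs3* to *Thbs4* (-0.38) separated the groups in the same way, each with the same exact p and adjusted p.

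The log2 ratio of *Thbs1* to *Thbs2* was 0.60 ± 0.176 in WT and 1.09 ± 0.186 in mEC1dup/dup (SD, n = 5), and its difference of 0.49 passed although 1 WT and 1 mEC1dup/dup library crossed over (exact permutation p = 0.0159, adjusted 0.0318). The ratios of *Thbs1* to *Thbs3* (difference 0.16, exact permutation p = 0.0873, adjusted 0.116) and of *Thbs1* to *Thbs4* (-0.22, exact permutation p = 0.183, adjusted 0.209) did not pass. Without mEC1dup/dup replicate 5, the exact permutation p of *Thbs1* to *Thbs3* was 0.00794 at a difference of 0.23. A ratio within a library does not depend on how the libraries are scaled to each other.

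**Figure D3:**
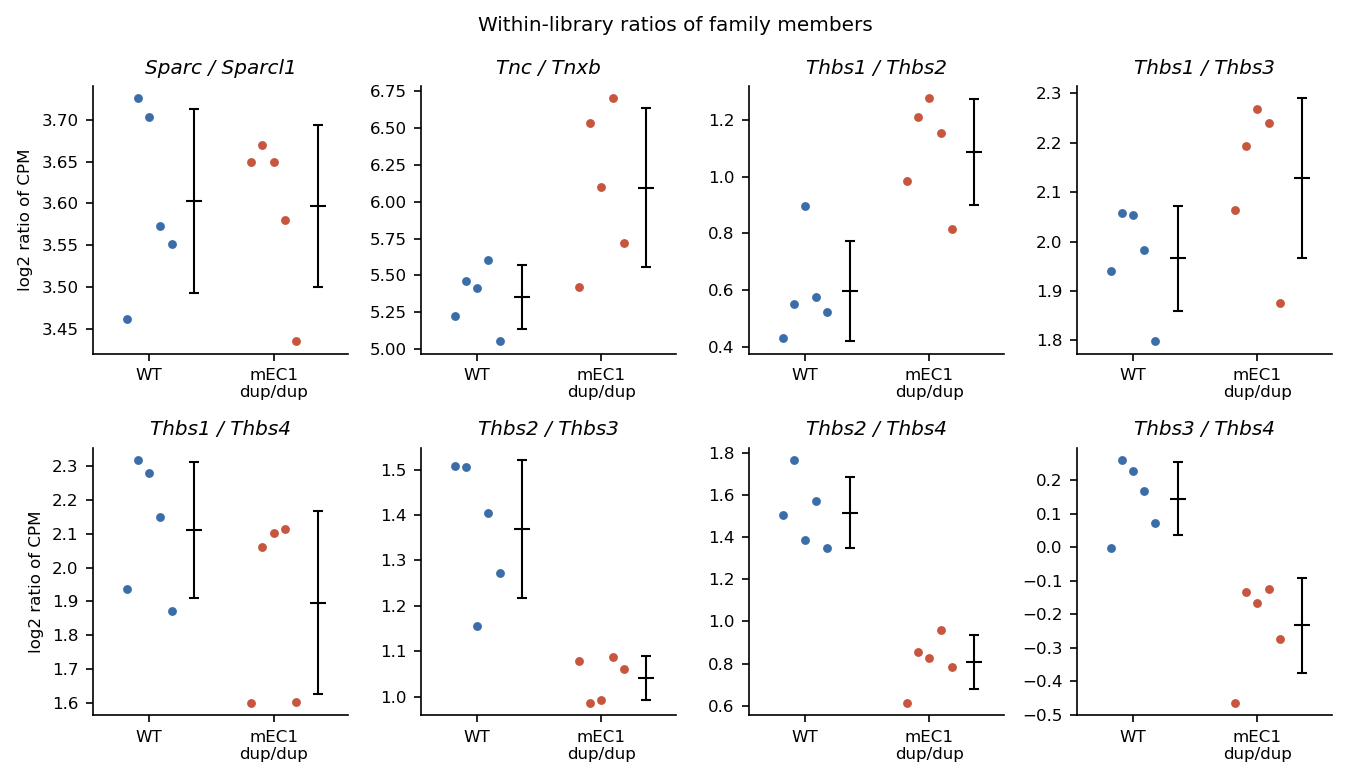
Log2 ratio of the CPM of 2 family members in each library (vertical axes not from 0), WT in blue and mEC1dup/dup in red, with the mean ± SD of 5 as black bars. *Thbs2* / *Thbs3*, *Thbs2* / *Thbs4* and *Thbs3* / *Thbs4* separate the genotypes, with differences of -0.33, -0.71 and -0.38, and *Sparc* / *Sparcl1* overlaps.

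*Sparc* lies on the minus strand of chromosome 11 of GRCm39 from 55285317 to 55314067 and shares no exonic base with another gene. It had 2112, 2198, 1926, 1842 and 1977 CPM in WT replicates 1 to 5 and 1716, 1717, 1698, 1739 and 1752 CPM in mEC1dup/dup replicates 1 to 5. Every mEC1dup/dup library was below every WT library, and the mEC1dup/dup libraries lay close together, with a coefficient of variation of 1.23% beside 7.12% in WT. With 30025 to 39697 counts per library, counting alone accounts for about 0.528% in WT and 0.564% in mEC1dup/dup. The level fell from 2011 ± 143 to 1725 ± 21.2 CPM (SD, n = 5), a log2 fold change of -0.22 (SE 0.045, 95% interval -0.32 to -0.12; edgeR quasi-likelihood test, adjusted p = 0.0217), or 0.858 of WT.

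The *Sparc* call was made in all 8 other settings without a covariate, the replicate block among them, at log2 fold changes between -0.225 and -0.216. It was lost without some single libraries. In edgeR's test the adjusted p of *Sparc* was 0.0637 without WT replicate 1, 0.0543 without WT replicate 2, 0.0650 without mEC1dup/dup replicate 2 and 0.0776 without mEC1dup/dup replicate 3, at log2 fold changes between -0.22 and -0.18, and the other 6 leave-one-out fits called it. In those fits that lost it, 164, 153, 135 and 120 of all tested genes were called lower, beside 297 with all libraries. With *Xist* as a covariate the estimate was -0.21 (SE 0.073; adjusted p = 0.404 from edgeR), and with the globin share it was 0.03 (SE 0.191; adjusted p = 0.983 from edgeR), of opposite sign. mEC1dup/dup replicate 5, without *Xist* counts, gave a *Sparc* log2 fold change of -0.20 on its own.

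*Sparcl1* encodes hevin, a relative of osteonectin with a longer acidic domain. It had 191.6, 166.0, 147.8, 154.7 and 168.6 CPM in WT replicates 1 to 5 and 136.6, 134.8, 135.2, 145.4 and 161.9 CPM in mEC1dup/dup replicates 1 to 5. 4 mEC1dup/dup libraries were below every WT library and replicate 5 was within the WT range. The log2 fold change of *Sparcl1* was -0.21 (SE 0.070, 95% interval -0.37 to -0.06; edgeR quasi-likelihood test, adjusted p = 0.131) and -0.03 in replicate 5 alone. With *Xist* as a covariate the *Sparcl1* estimate was -0.06 (SE 0.095), and with the globin share it was 0.39 (SE 0.255), of opposite sign. The ratio of *Sparc* to *Sparcl1* differed between genotypes by -0.006 (SE 0.066, exact permutation p = 0.937), so no difference between the changes of the 2 genes was detectable. An antisense RNA overlaps 7.72% of the exonic bases of *Sparcl1*.

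*Tnc*, encoding tenascin-C of embryonic mesenchyme and tendon, had 289, 298, 285, 221 and 275 CPM in WT replicates 1 to 5 and 242, 266, 261, 225 and 220 CPM in mEC1dup/dup replicates 1 to 5. WT replicate 4 stood below the other WT libraries and inside the mEC1dup/dup range. The log2 fold change was -0.17 (SE 0.078; edgeR quasi-likelihood test, adjusted p = 0.288), and without WT replicate 4 it was -0.24 with an adjusted p of 0.0261 in the edgeR test. The *Tnc* estimate was -0.33 (SE 0.114) with *Xist* as a covariate and -0.03 (SE 0.36) with the globin share.

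*Tnxb* encodes tenascin-X, a collagen-associated tenascin of skin, tendon and muscle whose loss gives hyperextensible skin. It was the least abundant member, and WT replicates 1 to 5 gave 132, 120, 117, 80 and 148 counts, beside 97, 50, 68, 38 and 75 in the mEC1dup/dup replicates. Here 4 mEC1dup/dup libraries were below every WT library, and mEC1dup/dup replicate 1 was above WT replicate 4. The level was 6.69 ± 1.44 CPM in WT and 3.62 ± 1.33 CPM in mEC1dup/dup (SD, n = 5), the largest change among the 10 at a log2 fold change of -0.89 (SE 0.240, 95% interval -1.40 to -0.37), but the adjusted p of 0.0706 from edgeR's quasi-likelihood test missed the threshold. Among the fits without a replicate block, *Tnxb* passed without WT replicate 4 (-1.01, adjusted p = 0.0251 from edgeR), without mEC1dup/dup replicate 1 (-1.09, adjusted p = 0.0247), in DESeq2's Wald test (-0.89, adjusted p = 0.00786) and in edgeR's fit with no filter on low counts (-0.88, adjusted p = 0.0462). The block, whose pairing is not settled, also called *Tnxb* lower (-0.92, adjusted p = 0.00763 from edgeR). With *Xist* as a covariate the *Tnxb* estimate was -0.85 (adjusted p = 0.548 from edgeR), and with the globin share -0.42 (SE 1.07; adjusted p = 0.962 from edgeR). The value is uncertain in a further way, because 7.15% of the 50-base windows of the *Tnxb* transcript also occur in other annotated genes, *Tnxa* among them. The ratio of *Tnc* to *Tnxb* was 0.74 higher in mEC1dup/dup (SE 0.260, exact permutation p = 0.0238, adjusted 0.0381 over the 8 pairs), and its unadjusted exact permutation p was 0.0635 without WT replicate 1, 0.0556 without WT replicate 3 and 0.0635 without WT replicate 5.

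*Postn* had 1093, 1021, 994, 905 and 992 CPM in WT replicates 1 to 5 and 936, 812, 804, 680 and 953 CPM in mEC1dup/dup replicates 1 to 5. Replicates 2, 3 and 4 of mEC1dup/dup were below every WT library, and replicates 1 and 5 lay within the WT range. The log2 fold change of *Postn* was -0.26 (SE 0.081, 95% interval -0.43 to -0.08; edgeR quasi-likelihood test, adjusted p = 0.120), while DESeq2's Wald test called it with an adjusted p of 0.0293. In replicate 5 alone the *Postn* estimate was -0.07. It was -0.15 (SE 0.124) with *Xist* as a covariate and 0.22 (SE 0.339), of opposite sign, with the globin share. The replicate block, whose pairing is not settled, also called *Postn* lower (-0.27, adjusted p = 0.0129 from edgeR).

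*Spp1*, encoding the integrin-binding phosphoprotein osteopontin of bone and macrophages, was covered by 122, 100, 68, 125 and 86 counts in the WT replicates and 71, 78, 130, 91 and 106 in the mEC1dup/dup replicates, in the order of their numbers. Both the highest and the lowest libraries were spread over the genotypes. The log2 fold change was -0.11 with a wide 95% interval of -0.53 to 0.32 that includes 0 (edgeR quasi-likelihood test, adjusted p = 0.844), and it lay between -0.24 (without mEC1dup/dup replicate 3) and -0.01 (without WT replicate 1) when single libraries were left out. The *Spp1* estimate was -0.02 (SE 0.314) with *Xist* as a covariate and -0.13 (SE 0.863) with the globin share. The coefficient of variation between libraries was 24.8% in WT and 23.4% in mEC1dup/dup, above the counting error of 9.99% and 10.2%. The unconfirmed gene *Gm42793* on the same strand covers 12.7% of the exonic bases of *Spp1*.

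The libraries also differed across members. WT replicate 4 had the lowest CPM of its genotype for 8 of the 10 genes, *Sparcl1* and *Spp1* being the exceptions, and mEC1dup/dup replicate 4 for 5. mEC1dup/dup replicate 5 had the highest CPM of its genotype for 6 genes. Without WT replicate 4, 4 of the 10 genes were called lower in edgeR's test, *Thbs2*, *Sparc*, *Tnc* and *Tnxb*, but 476 of all tested genes were too, beside 297 with all libraries.

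**Figure D4:**
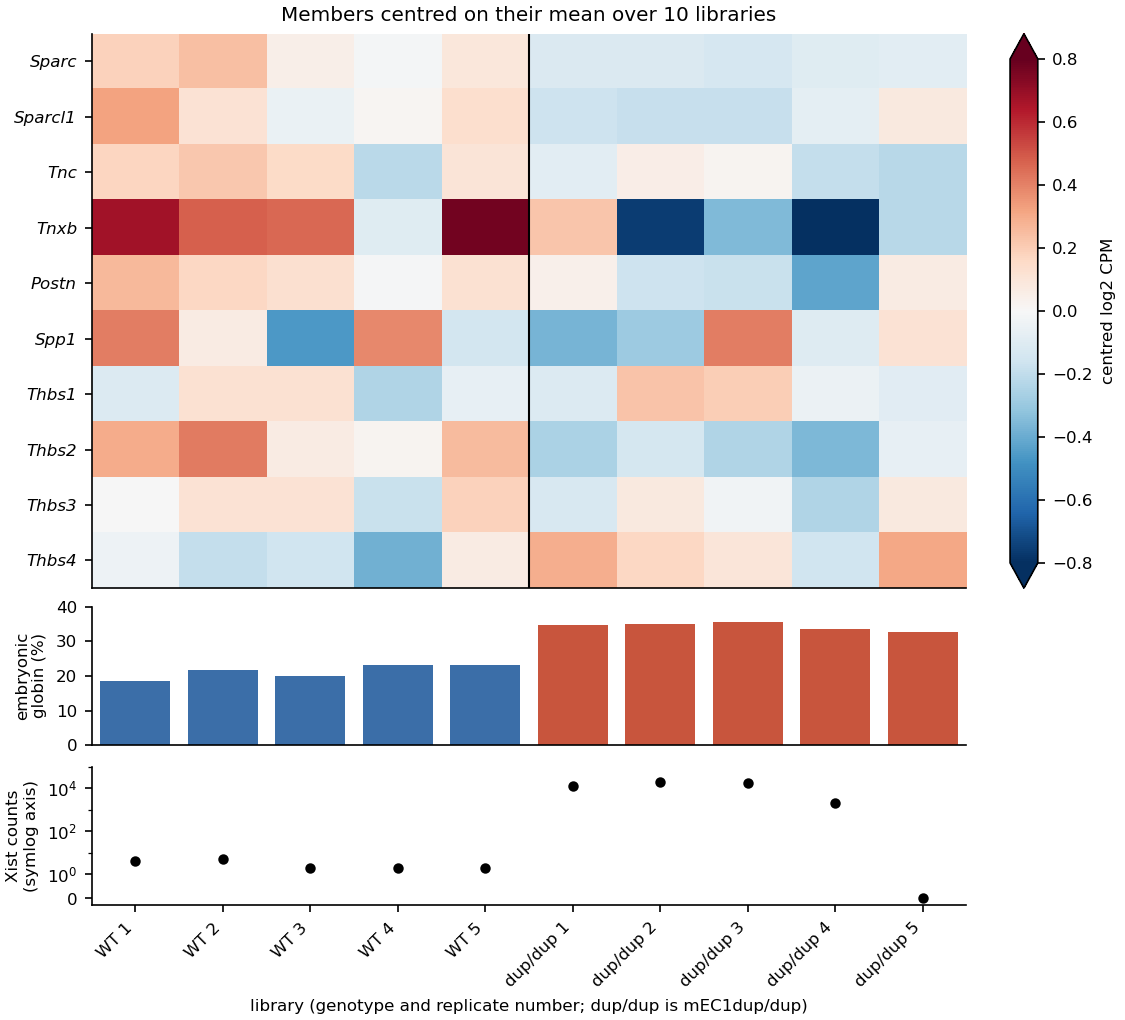
Log2 CPM of the 10 genes (rows) in the 10 libraries (columns), each gene centred on its mean, with red above and blue below; values beyond ±0.8 take the end colours. The bars give the embryonic globin share in percent of globin counts (18.4 to 23.3 in WT, 32.5 to 35.6 in mEC1dup/dup), and the points give *Xist* counts on a log axis that is linear below 1; WT replicate 4 is the lowest WT library for 8 genes.

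For each called gene, the other tested genes with the most similar pattern over the 10 libraries were found by the root mean square difference of centred log2 CPM. For *Thbs2* these were *Aebp1*, encoding a collagen-binding secreted protein, at a difference of 0.0756, *Adamts14*, encoding a procollagen N-proteinase, at 0.0785, and *Cdkn2c*, encoding an inhibitor of cyclin-dependent kinases, at 0.0899. For *Sparc* they were *Tmbim1* at 0.0388, *Rcn3*, encoding a protein of the endoplasmic reticulum, at 0.0475 and *Cbx6*, encoding a Polycomb protein, at 0.0479. The pattern includes the difference between genotypes, so the likeness is a description.

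A wider list of 24 relatives of these genes (SPARC family, tenascins, pentameric thrombospondin, fasciclin, SIBLING and CCN families, fibulins and *Ecm1*) had 20 tested genes, of which 2 were lower and none higher, beside 1.81% and 0.834% of all tested genes. This list and that of the receptors below were written with earlier results of these data known, so their shares of calls are descriptions. The untested relatives were *Mepe*, *Dspp*, *Enam* and *Ccn5*. *Comp*, encoding the cartilage oligomeric matrix protein and closest to *Thbs3* and *Thbs4* in its family, had 12.8, 12.8, 17.6, 13.1 and 13.5 CPM in WT replicates 1 to 5 and 3.14, 8.10, 6.08, 6.36 and 5.90 CPM in mEC1dup/dup replicates 1 to 5. The groups of *Comp* did not overlap, and its log2 fold change was -1.24 (SE 0.190; edgeR quasi-likelihood test, adjusted p = 0.00640). *Ccn3*, encoding a CCN protein that binds integrins, fell from 41.2 ± 2.16 to 25.8 ± 2.93 CPM (SD, n = 5), a log2 fold change of -0.68 (SE 0.075; edgeR quasi-likelihood test, adjusted p = 0.00126), again without overlap. Neither was called by edgeR with *Xist* as a covariate (*Comp* -1.23, adjusted p = 0.333; *Ccn3* -0.59, adjusted p = 0.169) or with the globin share (*Comp* -1.05 and *Ccn3* -0.76, both with an adjusted p of 0.898).

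The most abundant related genes that were not called were *Fstl1* at a log2 fold change of -0.10, *Fbln1* at -0.20 and *Smoc2* at -0.01 (adjusted p = 0.217, 0.315 and 0.957 from edgeR's quasi-likelihood test). At an unadjusted p under 0.05 in edgeR's test, 5 related genes were lower and 1, *Tgfbi*, was higher, beside 9.08% and 7.10% of all tested genes, and neither DESeq2 nor limma-voom called a related gene higher. The median of the 20 tested genes was -0.13.

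Among 24 receptors and surface partners, which include integrin subunits, CD36, CD47, LRP1, CD44, PTPRZ1 and syndecans, all were tested, 1 was lower and none was higher, beside 1.81% and 0.834% of all tested genes. *Cacna2d1*, whose product is a calcium channel subunit that binds thrombospondins, fell from 67.4 ± 4.35 to 56.7 ± 2.71 CPM (SD, n = 5; log2 fold change -0.25, SE 0.052; edgeR quasi-likelihood test, adjusted p = 0.0241). It was not called without WT replicate 1 or without mEC1dup/dup replicate 2, 3 or 4, each of which left 0 called receptors, and it was not called by edgeR with *Xist* (-0.19, adjusted p = 0.501) or the globin share (-0.37, adjusted p = 0.898) as a covariate. *Calr* (0.05), *Itgb1* (-0.09) and *Sdc1* (-0.04), the most abundant of the rest by the average over both genotypes, were not called, although every mEC1dup/dup library was below every WT library for *Itgb1*. DESeq2's Wald test called 5 receptors lower, *Cacna2d1*, *Cd36*, *Cd44*, *Ptprz1* and *Sdc4*, and limma-voom called *Cacna2d1* and *Cd36*. In edgeR's test the last 4 of the 5 had log2 fold changes of -0.45, -0.38, -0.37 and -0.21 and adjusted p of 0.0539, 0.0536, 0.0618 and 0.0955, and they are named here after their values were seen. At an unadjusted p under 0.05 in edgeR's test, 10 of the 24 receptors were lower and 0 higher, beside 9.08% lower and 7.10% higher of all tested genes, and neither DESeq2 nor limma-voom called any higher. The estimates of 21 lay below 0, beside 51.2% of all tested genes, and the median was -0.13.

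**Figure D5:**
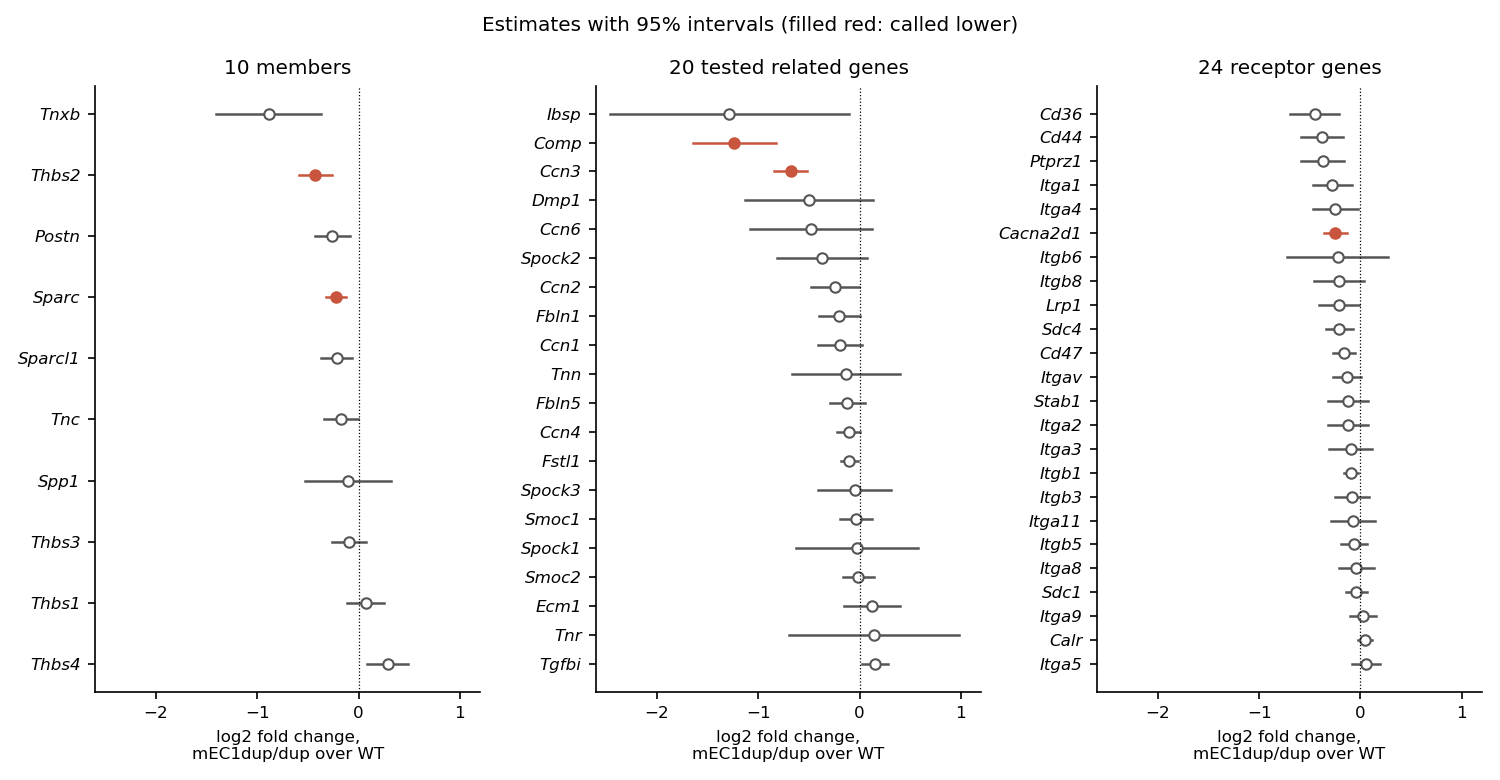
Log2 fold change of mEC1dup/dup over WT (horizontal axis) with 95% intervals for the 10 genes, 20 tested related genes and 24 receptors; filled red points were called lower by edgeR's quasi-likelihood test and open points were not called. *Tnxb* (-0.89) and *Thbs4* (0.29) are the ends of the members, and *Comp* and *Ccn3* are called in the middle panel.

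Markers of the cell types that make matricellular proteins were read beside these values. For every marker list, the share to compare with is the 1.81% of all tested genes called lower and 0.834% called higher. The marker lists too were chosen with earlier results of these data known. With the globin share as a covariate edgeR called no gene, markers included. With *Xist* as a covariate it called 1 gene lower and 2 higher among all tested genes. Of 7 perimysial and tendon markers, 4 were lower (*Kera*, *Fmod*, *Tnmd* and *C1qtnf3*), and the summed level of the list was 289 to 378 CPM in WT and 234 to 273 CPM in mEC1dup/dup, without overlap. On the same list *Scx* and *Mkx*, which encode transcription factors of tendon, had positive estimates of 0.24 and 0.20 (edgeR's quasi-likelihood test, adjusted p = 0.0758 and 0.388). DESeq2's Wald test also called *Scx* higher, and limma-voom did not call *C1qtnf3*. Of 7 fibroblast markers 1, *Lum*, was lower, DESeq2's Wald test also called *Dcn* lower, and 4 (*Col1a1*, *Col1a2*, *Lum* and *Dcn*) were lower at an unadjusted p under 0.05 in edgeR's test (beside 9.08% of all tested genes), with a median of -0.28 over the 7. Of 6 chondrocyte markers and 4 tested osteoblast markers (of 5, *Bglap* being untested) none was called by edgeR's quasi-likelihood test, DESeq2 or limma-voom. At an unadjusted p under 0.05 in edgeR's test, 2 chondrocyte markers and 1 osteoblast marker were lower, beside 9.08% of all tested genes. The summed chondrocyte level was 4872 to 8009 CPM in WT and 2148 to 6368 CPM in mEC1dup/dup, and the summed osteoblast level 64.6 to 135 and 44.1 to 85.7 CPM.

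The myogenic markers summed to 874 to 1356 CPM in WT and 540 to 838 CPM in mEC1dup/dup, with 2 of 6 called lower (*Ckm* and *Acta1*), beside 1.81% of all tested genes. *Acta1* alone fell from a mean of 578 to 314 CPM, DESeq2's Wald test also called *Mylpf* lower, and *Myod1* (0.09) and *Myog* (0.12) had positive estimates and were not called by edgeR, DESeq2 or limma-voom. The epithelial markers summed to 711 to 1274 and 565 to 733 CPM, with 3 of 5 lower (*Perp*, *Krt5* and *Krt14*), and the mast cell markers to 63.6 to 95.7 and 46.0 to 56.6 CPM, with 2 of 4 lower (*Cma1* and *Cpa3*). Among the mast cell markers, DESeq2's Wald test also called *Kit* lower. Of 6 pericyte and smooth muscle markers 1, *Rgs5*, was lower, at summed levels of 364 to 461 and 362 to 442 CPM. No endothelial, macrophage or Schwann cell marker was called by edgeR, DESeq2 or limma-voom (1, 0 and 1 lower at an unadjusted p under 0.05 in edgeR's test, beside 9.08% of all tested genes), with summed levels of 381 to 483 and 401 to 455 CPM, 140 to 165 and 136 to 166 CPM, and 120 to 223 and 95.7 to 167 CPM. Of 7 erythroid genes, *Hbb-y* and *Hba-x* were higher and *Hba-a2* was lower, at summed levels of 1263 to 2006 and 1423 to 2892 CPM. DESeq2's Wald test also called *Hbb-bh1* higher, and limma-voom did not call *Hba-x*. No marker on these lists was at 0 in all libraries. The part of these cell types in the levels of *Thbs2*, *Sparc* and the other genes was not tested.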

How the data were processed

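RNA was extracted from whole E14.5 pinna prominences of 5 WT and 5 mEC1dup/dup embryos. The authors used fastp for trimming, STAR for alignment to GRCm39 and featureCounts for counting, and the deposited values are raw counts per gene. The annotation release, strand setting and treatment of reads with several matches are not given in the sources used here. Libraries came from poly-A RNA with a kit that does not mark strand, so overlapping genes cannot be told apart. Each column was assigned by its sample label, and genotype was checked by *Hmx1*. The study describes its mouse replicates as siblings from separate litters, and which of these libraries shared a litter is not given in the sources used here. The p-values set the difference between the groups against the spread between these embryos. That difference also holds whatever else differed between the groups, such as *Xist* and the globin share.

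Ensembl identifiers were matched to a GENCODE annotation of GRCm39 (49355 of 53465). Counts were filtered with filterByExpr, scaled by TMM and fitted with edgeR 4.0.16 in R 4.3.3 (glmQLFit, glmQLFTest), with genotype as the only term and Benjamini-Hochberg adjustment over 16426 genes. Standard errors are the log2 fold change divided by the root of the F statistic. Log2 CPM used a prior count of 2. Library totals, 17461544 to 18462073, limit low genes, and counting errors cover sampling of reads alone. No library was a copy of another (chi-square per degree of freedom 2.57 to 18.4). The steps were tested on simulated counts with 200 genes shifted by 1 on the log2 scale, and 84.8% of the shifted genes that passed the filter were called, with 10 unchanged genes among 178 calls. That shift is larger than the estimate of any member, so the share called does not apply to changes of their size.

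The members and lists were chosen with earlier results of these data known. Named were the 10 members, *Hmx1*, *Xist* and embryonic globins, from each other list the called genes and up to 3 abundant ones not called (of the marker lists, the called genes), with other genes of the lists added after their values were seen, and the 3 genes most similar to each called member. Alternatives were DESeq2 1.42.0 size factors and Wald test, upper quartile scaling, limma-voom (limma 3.58.1), other filters, a replicate block, 2 covariates and leaving out each library. Figures were drawn with matplotlib 3.10.9.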

Additional observations from a re-analysis of the deposited data

Results flagged for a closer look

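Among 44 sets of 5 values checked (22 measures in each genotype), 2 had an end value whose gap to its neighbour, divided by the range of the set, was above the 95% limit of Dixon's test, while chance gives about 5%. *Tnc* was lowest in WT replicate 4, with a gap of 0.735 of the range: its log2 CPM was 7.79 there and 8.11 to 8.22 in the other WT libraries. *Comp* was highest in WT replicate 3, with a gap of 0.828 of the range: its log2 CPM was 4.15 there and 3.69 to 3.77 in the other WT libraries.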

How the results depend on the processing

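Of the 10 members, 2 were called lower, and DESeq2's size factors, upper quartile scaling, limma-voom, a minimum of 10 counts and no log2 CPM threshold called the same number, and no filter 3. DESeq2's Wald test and the replicate block each called 4 lower, and *Xist* or the globin share as a covariate called 0. The fit of mEC1dup/dup replicate 5 alone, added after seeing the data, assumes that the lone library varies like WT. Its calls say nothing about stability and are left out. Leaving out each library gave 1 to 4. No member was called higher except 1, *Thbs4*, with the replicate block (0 in all 10 leave-one-out fits). Over all genes, 297 were lower and 137 higher. The Wald test gave 510 and 321, *Xist* 1 and 2, the globin share 0 and 0, and leaving out libraries 120 to 476 and 34 to 179. The related genes called lower fell from 2 to 0 with either covariate, and ranged from 2 to 3 without single libraries. The 1 receptor called lower became 2 with upper quartile scaling or limma-voom, 3 with no filter or at least 10 counts, 5 with the Wald test, 4 with the block, 0 with either covariate, and 0 to 5 without single libraries. The cause of these shifts was not tested.

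The sign turned for *Sparc* (0.034, SE 0.191), *Sparcl1* (0.39, SE 0.255), *Postn* (0.225, SE 0.339) and *Thbs1* (-0.059, SE 0.391) with the globin share, for *Thbs1* with *Xist* (-0.074, SE 0.124), and in replicate 5 alone for *Spp1* (0.031), *Thbs1* (-0.063) and *Thbs3* (0.028). Without single libraries, the difference in log2 ratio ranged from -0.041 to 0.035 for *Sparc* to *Sparcl1* (0.025 without WT replicate 2, 0.019 without WT replicate 3 and 0.035 without mEC1dup/dup replicate 5), from 0.59 to 0.91 for *Tnc* to *Tnxb*, and from 0.12 to 0.23 for *Thbs1* to *Thbs3*. Other ratios kept sign and side of the threshold with another prior count, other size factors and each library left out.

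Whether the replicate numbers pair the libraries is not settled. Deviations of same-numbered libraries correlated at -0.0558 to 0.345 (mean 0.162, 4 of 5 pairs above 0.1), those of other pairs at a mean of -0.0403 and up to 0.272, and 4 of 10 libraries correlated best with their own number. No source says that a number marks a litter, and not every pair correlated, so the fit without the block was kept. With the block, 487 genes were lower and 200 higher, and among members edgeR's adjusted p was 0.00493 for *Thbs4* (0.29), 0.00763 for *Tnxb* (-0.92) and 0.0129 for *Postn* (-0.27). The ratio differences of 0.74 (*Tnc* to *Tnxb*), 0.49 (*Thbs1* to *Thbs2*), 0.16 (*Thbs1* to *Thbs3*), -0.22 (*Thbs1* to *Thbs4*), -0.33 (*Thbs2* to *Thbs3*), -0.71 (*Thbs2* to *Thbs4*) and -0.38 (*Thbs3* to *Thbs4*) each had an exact permutation p of 0.0625 in the block, the smallest that 5 pairs allow, and *Sparc* to *Sparcl1* had 1.0. For *Tnxb* and *Spp1* the counting error of 9.15% to 12.3% was below the spread between libraries of 21.5% to 36.8%.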
